A study of Mus musculus with 11 samples.

Results

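Within nEnd cells cultured without 4-hydroxytamoxifen (4OHT), a large group of endoderm cells carried transcripts of Amn and Cubn, which encode amnionless and cubilin, and the data on these Amn/Cubn-positive endoderm cells are described here. nEnd (naive extra-embryonic endoderm) stands for mouse stem cell lines grown in RACL medium, which holds Activin A, CHIR99021 and LIF, as a model of blastocyst primitive endoderm (PrE). The single-cell libraries came from Oct4-LOF nEnd, a line (labelled EPUc) that carries a homozygous Oct4 allele which 4OHT can inactivate. PDGFRA-positive cells of this line were sorted and cultured either with no treatment (-4OHT) or with 4OHT (+4OHT), and DAPI-negative cells were sorted for 10x Chromium libraries, 1 per condition. In -4OHT cells the allele is present but was not exposed to 4OHT. As a set of libraries that took no part in choosing the cells, bulk RNA-seq of untreated OCT4-mCherry nEnd was used. This line carries a fluorescent reporter of OCT4 and was sorted into Pdgfra+ cells, DP cells (positive for the reporter and for PDGFRA) and Oct4+ cells (positive for the reporter only), with 3 libraries each. All groups are cultures of single lines. The study calls the 3 bulk libraries of a population biological replicates, while nothing in the labels says whether they came from separate cultures. The p-values thus measure the spread between these libraries of 1 line.

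Cells were chosen by their UMI counts (unique molecular identifiers, the number of distinct transcripts read). A cell was kept with at least 2700 UMIs and at most 12% mitochondrial UMIs. It was called endoderm when the basement membrane genes Sparc, Col4a1 and Col4a2 summed to at least 3000 CPM (UMIs per 1000000) and the fibroblast collagens Col1a1, Col1a2 and Col3a1 to under 1000 CPM, and Amn/Cubn-positive with at least 3 UMIs of Amn and Cubn together. In the -4OHT library 6896 barcodes were listed, 5486 were kept and 1432 were endoderm, and 785 of these were positive. They were described against the 467 endoderm cells of the same library with 0 Amn and Cubn UMIs (zero cells), while 180 endoderm cells with 1 or 2 UMIs were left between them. Since the cells were selected on these values, every level in the -4OHT contrast is a description with no test, and the ratios carry exact Poisson 95% intervals that cover counting error only.

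The primitive endoderm gives rise to the visceral endoderm, which absorbs nutrients from the maternal side, and to the parietal endoderm, which lays down a thick basement membrane. Cubilin is a large peripheral membrane protein with no membrane anchor of its own, and amnionless is the transmembrane partner that brings it to the apical surface. Together they form a receptor that takes up vitamin B12 bound to intrinsic factor as well as many proteins and lipoproteins, often beside megalin (Lrp2), with Dab2 as an adaptor to clathrin, and cargo ends in the lysosome. Cubn and Amn are best known from the visceral yolk sac, the kidney proximal tubule and the ileum.

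In GRCm38 coordinates of the GENCODE annotation, the protein-coding genes Amn and Cubn lie at chr12:111271095-111276426 (+) and chr2:13276338-13491813 (-). Npl, which encodes the sialic acid lyase, lies at chr1:153503015-153550045 (-), and Nostrin, which encodes a membrane-trafficking adaptor, lies at chr2:69135800-69189330 (+). Both are marker genes of these cells, and the 250 bases before the RefSeq start of these 4 genes are shown because the comparisons turn on them. The windows are chr12:111270846-111271095 (+) for Amn, chr2:13491877-13492126 (-) for Cubn, chr1:153549715-153549964 (-) for Npl and chr2:69135550-69135799 (+) for Nostrin, in RefSeq coordinates of GRCm38.p6, each written 5′ to 3′ on the strand of the gene. Capitals mark the matches to 9 short motifs searched on both strands.
Amn: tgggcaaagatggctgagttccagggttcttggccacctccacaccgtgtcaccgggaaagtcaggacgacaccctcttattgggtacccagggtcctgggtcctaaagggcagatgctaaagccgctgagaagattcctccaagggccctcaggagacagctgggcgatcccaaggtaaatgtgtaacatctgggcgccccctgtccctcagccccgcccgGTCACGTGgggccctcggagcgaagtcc
Cubn: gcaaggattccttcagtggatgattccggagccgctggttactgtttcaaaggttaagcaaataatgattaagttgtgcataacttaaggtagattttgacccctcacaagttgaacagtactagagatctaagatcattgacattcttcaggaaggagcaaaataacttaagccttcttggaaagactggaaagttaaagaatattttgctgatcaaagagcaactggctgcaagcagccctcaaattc
Npl: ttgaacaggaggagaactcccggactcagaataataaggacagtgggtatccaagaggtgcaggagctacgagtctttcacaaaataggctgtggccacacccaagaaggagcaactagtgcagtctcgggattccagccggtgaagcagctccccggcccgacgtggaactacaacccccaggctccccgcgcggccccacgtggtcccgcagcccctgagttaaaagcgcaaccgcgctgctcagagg
Nostrin: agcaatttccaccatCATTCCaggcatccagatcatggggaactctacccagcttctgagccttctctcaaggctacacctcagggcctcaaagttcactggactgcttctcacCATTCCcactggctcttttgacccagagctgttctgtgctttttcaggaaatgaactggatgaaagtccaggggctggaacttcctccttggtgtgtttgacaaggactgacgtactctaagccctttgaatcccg
The motif of endodermal zinc-finger factors was AGATAA. That of HNF1 factors was GTTAAT, that of forkhead FOXA factors was TGTTTAC and that of HNF4 was CAAAGTCC. The CLEAR element of lysosomal genes was searched as GTCACGTG, the octamer as ATGCAAAT and the SOX motif as AACAAAG. The TEAD motif was GGAATG and the AP1 motif TGANTCA. The Amn window held the CLEAR letters 28 bases before the start, which were in 1.85% of all 32851 promoters and in 3.96% of the promoters of genes tested in the -4OHT contrast. The Nostrin window held the TEAD letters, on the opposite strand, 235 and 136 bases before the start, and 12.6% of all promoters held them. In the Cubn and Npl windows none of these letters were found. These matches are descriptions of letters and not of binding.

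Positive cells made up 54.8% of the -4OHT endoderm cells (exact binomial 95% interval 52.2% to 57.4%). Their Amn and Cubn counts did not sit at the threshold, with a median of 21 UMIs, quartiles of 12 and 31 and a maximum of 89. Both genes were detected in 715 of the 785 cells (91.1%), Cubn alone in 59 and Amn alone in 11, with medians of 8 Amn and 12 Cubn UMIs. Just inside the threshold, 33 cells had exactly 3 UMIs, and just outside it 47 cells had exactly 2. Cells chosen on Cubn alone (3 or more UMIs against 0) had 483.5 CPM of Amn (here from the summed UMIs of all cells in a group) against 12.2 CPM, and cells chosen on Amn alone had 720.3 CPM of Cubn against 59.8 CPM. Both parts of the receptor were thus found in the same cells whichever of them was used to choose.

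**Figure D1:**
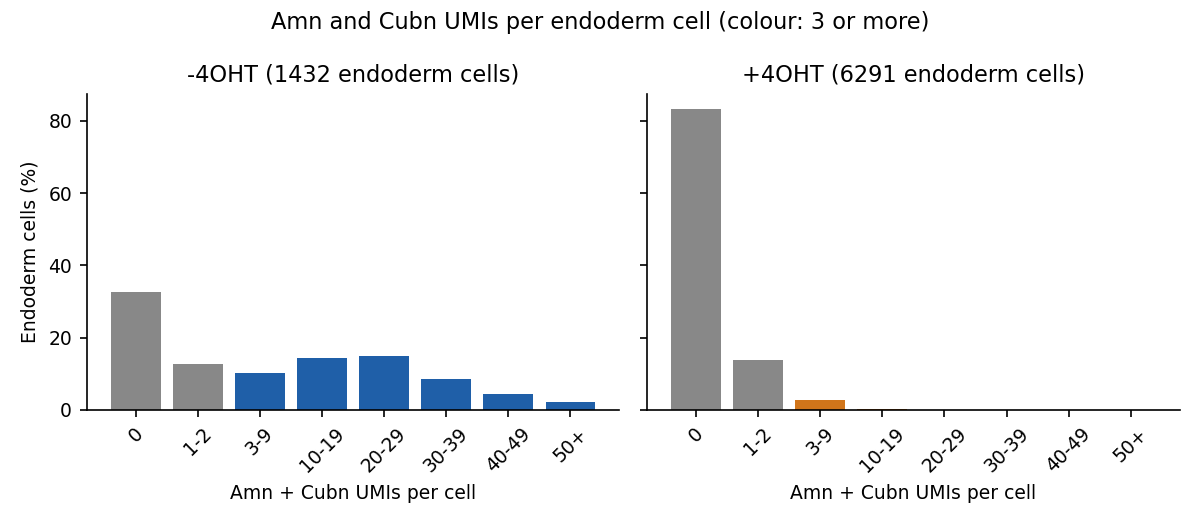
Percentage of endoderm cells (y axis) by the summed Amn and Cubn UMIs of the cell (x axis) in the -4OHT library (left, 1432 cells) and the +4OHT library (right, 6291 cells), with classes of 3 or more UMIs in colour. Without 4OHT the cells spread over all classes up to a maximum of 89 UMIs, and with 4OHT 83.4% of cells had 0.

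In cells with low basement membrane transcripts (Sparc, Col4a1 and Col4a2 under 500 CPM, 3700 cells of the -4OHT library), Amn and Cubn were near background. At least 1 UMI was found in 13.9% of them and at least 3 in 4 cells (0.108%), although their median depth of 18667.5 UMIs was above the 15216 UMIs of the endoderm cells. Thinned to 2700 UMIs per cell, 30.6% of the -4OHT endoderm cells and 0 of the 3700 other cells had 3 or more UMIs, which allows a share of up to 0.0811%. Under 4OHT the same rule gave 175 positive cells of 6291 endoderm cells (2.78%, 2.39% to 3.22%), with a median of 4 UMIs and a maximum of 13, and 0.111% after thinning. The +4OHT library held only 67 cells with low basement membrane transcripts, 0 of them positive, which allows a share of up to 4.48%, so that a background share could not be set for that library. With 1 library per condition, the treatment and the library cannot be told apart, and 21 barcodes occurred in both libraries.

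Positive cells were deeper than zero cells, with medians of 18183 against 11836 UMIs, and had slightly more mitochondrial UMIs, with medians of 6.92% against 5.89%. When zero cells were matched to positive cells on UMIs (340 cells each), 260 of the 304 genes described next and 430 of the 541 lower genes were found again. Scrublet, a doublet caller, marked 59 positive cells (7.52%) and 42 zero cells (8.99%), which were kept. In the +4OHT library it marked 1 of 6525 cells and thus did not work there.

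The positive cells carried endoderm genes that the rule did not use, though not all of them at the level of zero cells. Gata6, the transcription factor that specifies PrE, was at 206 CPM in positive and 209 CPM in zero cells, against 5.18 CPM in cells with low basement membrane transcripts. The PrE receptor gene Pdgfra was at 135 and 147 CPM, and Gata4 at 97.3 and 129 CPM. The 4 marker genes other than Amn and Cubn summed to 998 CPM in positive cells, 137 CPM in zero cells and 37.5 CPM in cells with low basement membrane transcripts. The summed level of 16 feeder fibroblast genes was 32.0 CPM in positive and 112 CPM in zero cells. Most of the sum in zero cells came from Fbn1 (11.5 and 73.9 CPM) and Acta2 (2.06 and 24.95 CPM). The collagen genes Col1a1 (2.52 and 0.158 CPM), Col1a2 (3.29 and 0.790 CPM) and Col3a1 (0.387 and 0 CPM), which the rule limits, were slightly higher in positive cells and near the floor in both groups. Among carrier proteins of the mature visceral endoderm, Ttr (transthyretin) was at 34.9 against 26.2 CPM, Afp (alpha-fetoprotein) at 0.387 against 1.90 CPM, and Alb at 0 in both, while other members of that list, given further on, were higher. Of 14 primitive endoderm core genes with at least 20 CPM in either group, 5 were 2-fold or more higher in positive cells (4.62% of all genes). The 2 lower genes (8.23% of all genes) were Sox17 (124 and 300 CPM) and Foxa2 (41.5 and 115 CPM). In cells with low basement membrane transcripts these were at 2.22 and 0.590 CPM. By Gata6, Gata4 and Pdgfra, which the rule did not use, the cells were endoderm, and they are called here by the genes that chose them.

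Of 6577 genes with at least 20 CPM in either group, 304 were 2-fold or more higher in positive cells (4.62%) and 541 were 2-fold or more lower (8.23%), with Amn and Cubn left out. The median log2 ratio over all tested genes was -0.09. Of the 304 genes, 159 were under 20 CPM in zero cells, and of the 541 genes, 330 were under 20 CPM in positive cells. Such genes were compared only because of the group in which they were high, so that the list counts and medians given here are descriptions and support nothing. The other 4 marker genes were far apart between the groups. Npl was at 357 CPM in positive and 20.4 CPM in zero cells (17.5-fold, 14.7 to 21.0), and was detected in 95.3% and 20.6% of cells, or 59.1% and 6.21% after thinning. In cells with low basement membrane transcripts Npl was detected in 10.1%, or 2.11% after thinning. Myo7a, an unconventional myosin of actin-based protrusions, was at 81.0 and 1.74 CPM (46.6-fold, 26.0 to 93.6). Nostrin was at 287 and 43.3 CPM (6.64-fold), and Nefl, the neurofilament light chain, at 273 and 71.9 CPM (3.80-fold).

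Among genes that reached 50 CPM in either group, the largest ratio belonged to Fam151a, at 52.4 against 0.474 CPM. Only 3 Fam151a UMIs were counted in all zero cells, so that the interval of the ratio was wide (37.7 to 538). Gas6, a secreted ligand of TAM receptors, was at 56.2 and 1.74 CPM, and Timd2, a ferritin receptor, at 69.5 and 5.84 CPM. The connexin gene Gjb5 was at 174 against 6.47 CPM. Amot, an angiomotin that binds YAP, was at 124 and 6.95 CPM, and Slc13a5, a plasma membrane citrate transporter, at 81.2 and 4.74 CPM. Neurofilament medium chain (Nefm) was at 59.2 and 2.84 CPM. Rab11fip4, an effector of the recycling endosome GTPase RAB11, was at 77.9 and 4.74 CPM, and the transcription factor Tfec of the MiT family at 50.7 and 3.00 CPM. The de novo DNA methyltransferase gene Dnmt3b was at 152 and 14.2 CPM, and its cofactor Dnmt3l at 191 and 19.6 CPM. Ctsc, a lysosomal dipeptidyl peptidase, closed this group at 172 and 18.6 CPM.

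Among genes that reached 50 CPM, the smallest ratios were those of Spon2, a secreted matrix protein, at 4.26 against 82.4 CPM in zero cells (19.4-fold lower) and of Ccn2, a matricellular YAP target, at 12.1 against 224 CPM. The contractile light chain gene Myl9 was at 3.68 against 67.6 CPM. Fst (follistatin), which binds activins, was at 40.7 against 626 CPM and was detected in 13.6% against 86.7% of cells, or 5.35% against 63.8% after thinning. The retinol carrier Rbp4 was at 4.13 against 61.6 CPM, and the hypoxia-inducible factor gene Epas1 at 19.2 against 283 CPM. Flt1, which encodes a VEGF receptor, was at 67.0 against 844 CPM. The mitochondrial thiolase Acaa2, the steroid reductase Srd5a1 and the homeobox gene Pitx1 were between 0.0700 and 0.0797 of the level in zero cells, with Pitx1 at 39.8 against 499 CPM.

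Levels changed in steps with the number of Amn and Cubn UMIs. Npl was at 20.4, 32.1, 232, 318, 370 and 419 CPM in cells with 0, 1 to 2, 3 to 9, 10 to 19, 20 to 29 and 30 or more UMIs. Fst was at 626, 520, 231, 15.6, 14.1 and 6.96 CPM in the same classes. Cells with 1 or 2 UMIs were thus close to the zero cells in both genes, and cells with 3 to 9 lay between. At the threshold itself, Npl was at 33.6 CPM in cells with exactly 2 UMIs and at 123 CPM in cells with exactly 3, and Fst at 520 and 367 CPM. Gata6 stayed between 189 and 227 CPM in the 6 classes. The depth of the cells moved with the classes, from a median of 12350.5 UMIs at 3 to 9 to 23389.5 UMIs at 30 or more, and its part in these steps was not tested.

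**Figure D2:**
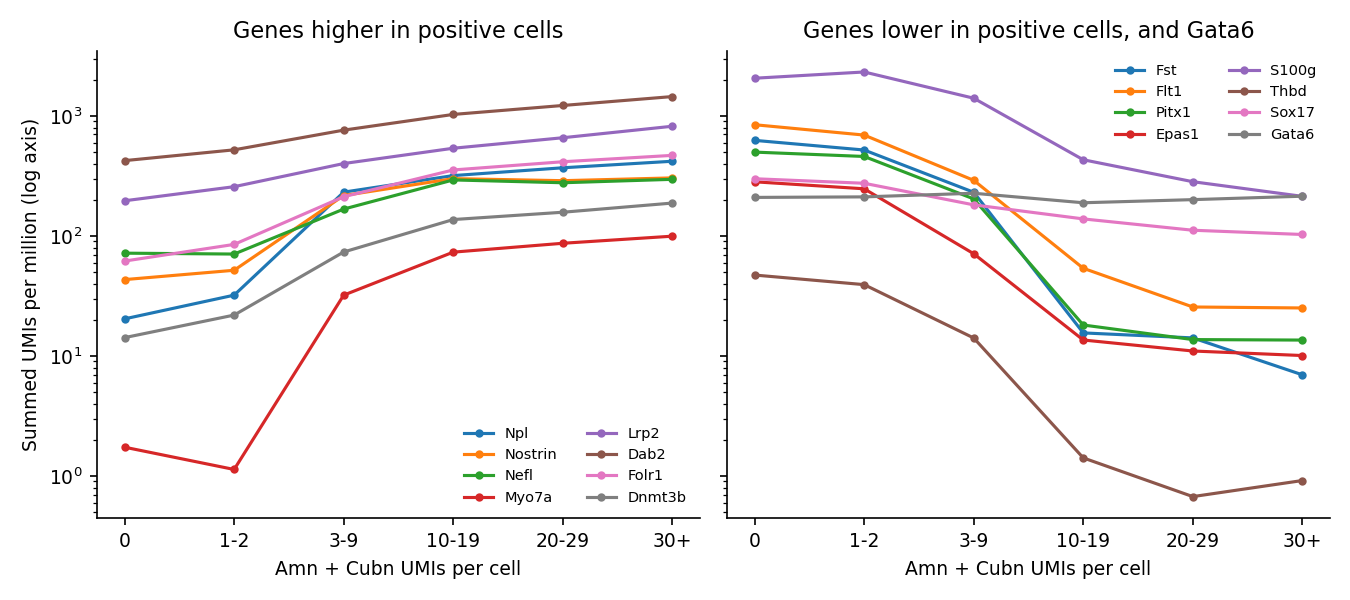
Level of named genes (y axis, CPM of summed UMIs, log axis) in -4OHT endoderm cells grouped by their Amn and Cubn UMIs (x axis), for genes higher in positive cells (left) and for genes lower in positive cells with Gata6 (right). The main step lay between 1 to 2 and 3 to 9 UMIs for Myo7a (1.13 and 32.1 CPM) and between 3 to 9 and 10 to 19 UMIs for Pitx1 (203 and 18.1 CPM), while Gata6 was nearly flat.

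Over the 1432 endoderm cells thinned to the same depth, the genes whose UMIs correlated most with Amn and Cubn were Dppa5a (Pearson's r = 0.584), Slc2a3 (0.563), Npl (0.527), Ctsl (0.523) and Eif2s2 (0.503). These correlations are across cells of 1 library and are a description. Slc2a3, a high-affinity glucose transporter, was at 917 CPM in positive and 146 CPM in zero cells. Eif2s2, the beta subunit of translation initiation factor eIF2, was at 1557 and 554 CPM. Dppa5a, an RNA-binding protein gene of pluripotent cells, was at 3090 and 1093 CPM.

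Among 24 endocytic receptors and adaptors, 19 were tested. Of these, 3 were 2-fold or more higher in positive cells (4.62% of all genes) and 1 was lower (8.23%). Lrp2 (megalin) was at 653 and 196 CPM (3.33-fold, 3.14 to 3.53), and its adaptor Dab2 at 1197 and 424 CPM (2.82-fold, 2.71 to 2.94). Folr1, the folate receptor, was at 393 and 61.7 CPM (6.37-fold). The list median was 0.47 on the log2 scale, against -0.09 over all tested genes. Of 5 other tested genes of vitamin B12 transport and use, 0 were 2-fold higher (4.62% of all genes) or lower (8.23%). The plasma carrier gene Tcn2 was at 133 and 175 CPM and its receptor gene Cd320 at 84.7 and 56.5 CPM.

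Of 9 tested apical microvillus genes, 3 were 2-fold or more higher (4.62% of all genes) and 0 lower (8.23%). Of the 3, only Eps8 reached 20 CPM in both groups. These 3 genes were the marker gene Myo7a, Clic5 (55.5 and 6.63 CPM), which encodes a protein of the cortical cytoskeleton, and Eps8 (150 and 44.8 CPM), an actin-capping protein. All 30 lysosomal genes of the list were tested, with a median of 0.58. Of these, 7 were 2-fold or more higher (4.62% of all genes) and 1 lower (8.23%). In both groups, 5 of the 7 reached 20 CPM. Hexa, a subunit of beta-hexosaminidase, was at 173 and 21.8 CPM (7.96-fold), Scarb2, a lysosomal membrane receptor, at 27.4 and 6.16 CPM (4.45-fold), and the protease gene Ctsz at 504 and 158 CPM (3.19-fold). Ctsl, the cathepsin with the highest level, was at 5301 and 2431 CPM (2.18-fold). Among genes of sialic acid metabolism, Npl was higher, whereas Cmas, which activates sialic acid, was at 39.7 and 77.9 CPM and the sialidase gene Neu1 at 156 and 94.3 CPM.

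Of the visceral endoderm regulators, 5 of 13 tested genes were higher (4.62% of all genes) and 3 lower (8.23%), with a median of -0.02. Hhex, Ihh and Eomes were under 20 CPM in zero cells. Hhex, a homeobox gene of the anterior visceral endoderm, was at 26.3 and 3.32 CPM (7.94-fold, 5.12 to 13.0), the WNT inhibitor gene Dkk1 at 143 and 31.1 CPM, and the hedgehog ligand gene Ihh at 25.3 and 7.11 CPM. Klf5 was at 439 and 168 CPM, and the T-box gene Eomes at 23.0 and 7.42 CPM. Sox17 (124 and 300 CPM), Foxa2 (41.5 and 115 CPM) and Lefty1 (9.74 and 43.3 CPM) were lower. Of 8 tested secreted and carrier proteins of the visceral endoderm, 3 were higher (4.62% of all genes) and 2 lower (8.23%). Their median was 0.47. The protease inhibitor gene Spink1 (107 and 20.1 CPM) and Apoe (337 and 99.2 CPM) were higher, as was the lipoprotein assembly gene Mttp (21.9 and 8.53 CPM), and the calcium-binding protein gene S100g was lower, at 441 and 2060 CPM.

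The parietal endoderm list leaned the other way, with 8 of 20 tested genes 2-fold or more lower (8.23% of all genes) and a median of -0.76. In this list 2 genes were higher (Hspg2 and Sox7), where 4.62% of all genes were. Without Sparc, Col4a1 and Col4a2, which the endoderm rule used, 7 of 17 were lower and 2 higher, with a median of -0.74. Thrombomodulin (Thbd) was at 2.71 and 47.2 CPM, tissue plasminogen activator (Plat) at 5.35 and 44.5 CPM, and keratin 19 (Krt19) at 45.5 and 320 CPM. Col4a1 was at 2075 and 4140 CPM (0.501 of the zero cells). The intermediate filament genes Vim (63.0 and 235 CPM), Krt8 (191 and 463 CPM) and Krt18 (219 and 481 CPM) were lower as well, in contrast to Nefl and Nefm.

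Of the early PrE genes named by the study, 5 were tested. In positive cells 2 of them were 2-fold or more higher (4.62% of all genes) and 0 lower (8.23%). Fgfr2, an FGF receptor of the PrE, was at 28.8 and 3.00 CPM (9.59-fold), and Klf5 was the other, while Tbx3 (136 and 73.1 CPM) and Idh1 (164 and 89.1 CPM) did not reach 2-fold. Of the late PrE genes, 0 of 5 were higher (4.62% of all genes) and 1, Foxa2, was lower (8.23%). Cited1 was at 286 and 539 CPM and Vegfa at 26.2 and 39.01 CPM. The 5 genes include Col4a1, which the endoderm rule used. In the FGF/ERK list, 4 of 6 tested genes were higher (4.62% of all genes) and 0 were lower (8.23%). The higher genes were Fgfr2, the ERK phosphatase gene Dusp4 (20.8 and 3.32 CPM), the ligand gene Fgf10 (36.6 and 7.58 CPM) and the ETS factor gene Etv4 (34.8 and 15.5 CPM). All 4 were under 20 CPM in zero cells, and 1 gene of the list, Spred2, reached 20 CPM in both groups.

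**Figure D3:**
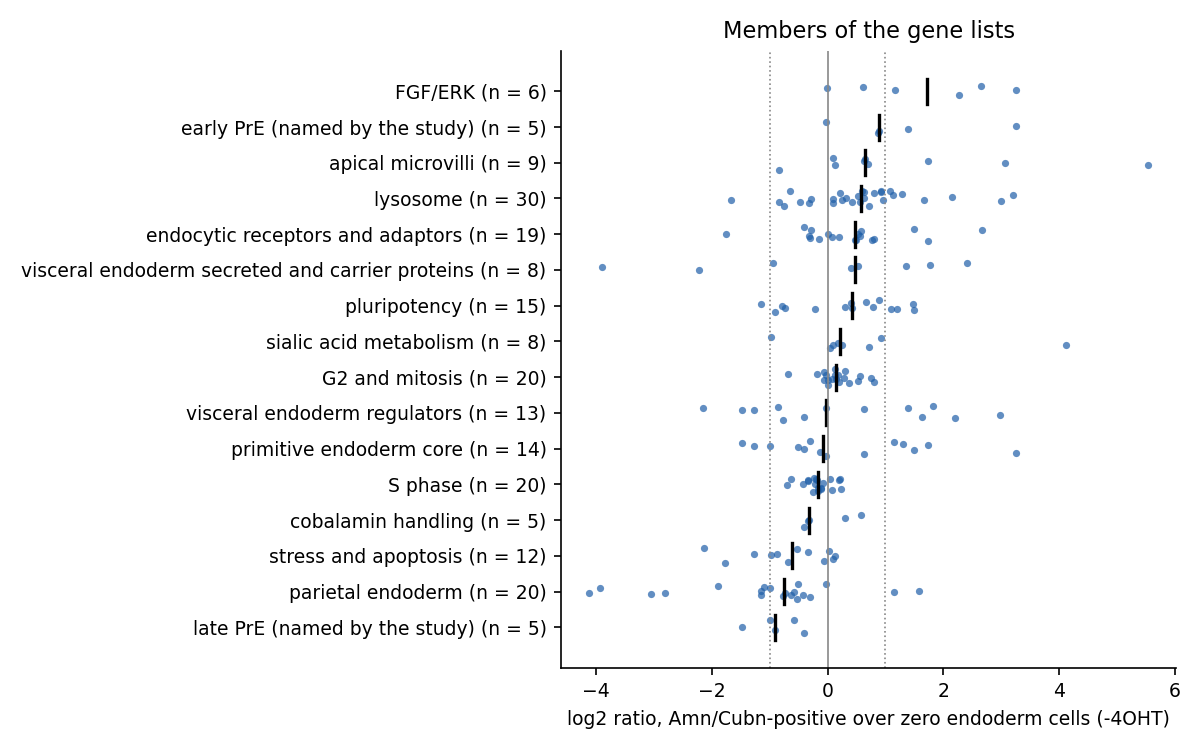
Each point is a tested member of a gene list, placed by its log2 ratio of CPM in positive over zero -4OHT endoderm cells (x axis), with black bars at list medians and dotted lines at 2-fold. Of the lists drawn, FGF/ERK had the highest median (1.72, where all 4 genes past 2-fold were under 20 CPM in zero cells). Late PrE had the lowest (-0.92, with Col4a1, which the endoderm rule used), and lists that are not drawn reached -3.14.

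With the cells marked by Scrublet kept, pluripotency genes did not move together. Dppa5a, the developmental pluripotency genes Dppa2 (85.5 and 30.8 CPM), Dppa4 (37.2 and 16.3 CPM) and Tdh (173 and 80.7 CPM), a threonine-catabolizing enzyme, were the 4 of 15 tested genes that were 2-fold or more higher in positive cells (4.62% of all genes). Klf4 (127 and 281 CPM) was lower (8.23% of all genes). Pou5f1, which encodes OCT4 and is the gene that 4OHT deletes, was at 19.9 CPM in positive, 9.32 CPM in zero and 48.1 CPM in cells with low basement membrane transcripts, and was detected in 28.8%, 8.35% and 54.6% of these cells, or 5.86%, 0.642% and 12.1% after thinning. Its log2 ratio was 1.10, and 2.09 without the cells marked by Scrublet. With the marked cells kept, the core factors Nanog (15.8 and 26.2 CPM), Sox2 (27.5 and 47.7 CPM) and Klf2 (23.9 and 44.7 CPM) were lower in positive than in zero cells. Both groups were far below the 184, 340 and 281 CPM of cells with low basement membrane transcripts. The ratios of these core factors without the marked cells are not given here. The list median was 0.42, and 1.44 without the marked cells. The epiblast marker gene Pecam1 was at 4.45 and 8.53 CPM.

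No cell cycle gene was 2-fold apart among 20 S phase genes (median -0.17) and 20 genes of G2 and mitosis (median 0.14). Over all genes, 4.62% were 2-fold or more higher and 8.23% lower. Of 12 stress and apoptosis genes, 0 were higher (4.62% of all genes) and 3 were lower (8.23%). The lower genes were Jun (28.2 and 124 CPM), the cell cycle inhibitor gene Cdkn1a (93.3 and 317 CPM) and the apoptosis effector gene Bax (229 and 556 CPM). The 16 feeder genes included 2 tested genes, Acta2 (2.06 and 24.95 CPM) and Fbn1 (11.5 and 73.9 CPM). Both were lower in positive cells (8.23% of all genes) and under 20 CPM there. Of 14 trophectoderm genes 4 were tested, of which Eomes was higher (4.62% of all genes) and Krt8 and Krt18 were lower (8.23%). Tead4 was at 51.2 and 29.5 CPM, while Cdx2 was at 1.48 and 2.37 CPM. In all, 0 genes of a list of the 2-cell-like state reached 20 CPM in either group.

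The same contrast was then read in the +4OHT library, whose cells took no part in choosing these genes. There 32 of 6742 genes were 2-fold or more higher in positive cells (0.475%) and 62 lower (0.920%), and the positive cells held few Amn and Cubn UMIs. Both genes were detected in 39 of the 175 positive cells. These cells were deeper than zero cells, with medians of 16180 against 11900 UMIs, and the part of depth in the ratios was not tested. Of the 304 genes higher without 4OHT, 178 were tested with 4OHT, 152 of them had a ratio above 1 and 18 were 2-fold or more higher, against a background of 51.6% of genes with a ratio above 1. Of the 541 lower genes, 519 were tested, 465 had a ratio below 1 (background 48.4%) and 33 were 2-fold or more lower. Of the 178 genes, 1 was 2-fold or more lower (Ly6a). The medians were 0.27 and -0.34 on the log2 scale, against 0.01 over all 6205 genes tested in both libraries. Npl was at 69.2 CPM in positive and 13.7 CPM in zero cells with 4OHT (5.04-fold), Nostrin at 128 and 68.3 CPM and Lrp2 at 359 and 181 CPM. In contrast, Gjb5 was at 14.1 and 18.6 CPM, Dnmt3b at 9.92 and 9.25 CPM, and Pitx1 at 293 and 311 CPM. Pou5f1 was at 3.61 and 1.77 CPM with 4OHT.

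Whether the genes that went with Amn and Cubn in single cells also differed between sorted populations was asked in the bulk libraries of the other line. In bulk samples, fewer cells of a type and less RNA per cell cannot be told apart. Amn was at 210, 164 and 117 CPM in the Pdgfra+ libraries, at 460, 818 and 710 CPM in the DP libraries and at 5.81, 19.03 and 5.43 CPM in the Oct4+ libraries. Every DP library was above every Pdgfra+ library, and the Oct4+ libraries were lowest. Amn rose by 2.02 ± 0.43 (log2 fold change ± SE) in DP against Pdgfra+ (edgeR quasi-likelihood test, adjusted p = 0.0288). Cubn was at 687, 728 and 470 CPM in Pdgfra+, at 1450, 2770 and 2850 CPM in DP, and at 10.9, 43.9 and 12.4 CPM in Oct4+. It was highest in DP with no overlap, and rose by 1.91 ± 0.49 (edgeR, adjusted p = 0.0463).

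Of the other 4 marker genes, 3 passed the threshold of an adjusted p below 0.05 with a log2 fold change beyond 1.5 in either direction. Npl was at 70.9, 105 and 82.1 CPM in Pdgfra+ and at 185, 347 and 507 CPM in DP (2.01 ± 0.40, edgeR adjusted p = 0.0233). Myo7a was at 28.7, 7.17 and 22.1 CPM and at 123, 186 and 268 CPM (3.32 ± 0.47, edgeR adjusted p = 0.0107). Nostrin was at 85.9, 65.1 and 48.4 CPM and at 158, 192 and 268 CPM (1.63 ± 0.38, edgeR adjusted p = 0.0365). In all 3 genes the populations did not overlap. Nefl did not overlap either, with 119, 44.3 and 127 CPM in Pdgfra+ and 145, 192 and 174 CPM in DP, but did not pass (0.81 ± 0.38, edgeR adjusted p = 0.213). Of the 5 markers that passed, Myo7a kept an adjusted p below 0.05 without any 1 library, while Amn, Cubn, Npl and Nostrin each lost it without any of Pdgfra+ replicates 1, 2 or 3 or DP replicates 2 or 3, with adjusted p of at most 0.114, 0.162, 0.0939 and 0.137 in edgeR.

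**Figure D4:**
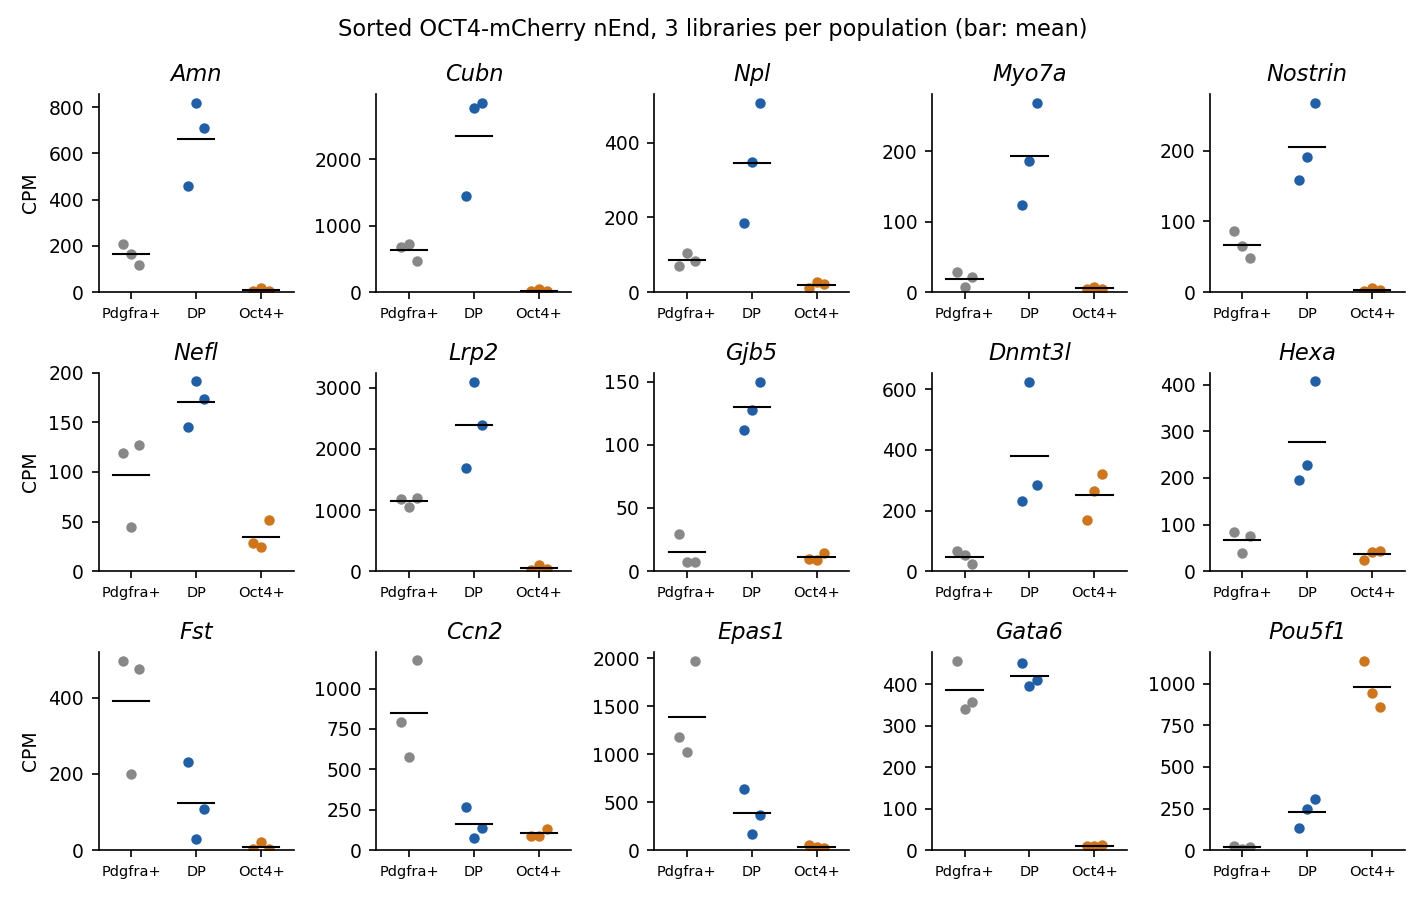
CPM (y axis, from 0) of 15 genes in the sorted OCT4-mCherry nEnd populations (x axis), with a point for each of the 3 libraries and a bar at their mean. Amn, Cubn, Npl, Myo7a, Nostrin, Nefl, Lrp2, Gjb5 and Hexa were highest in all DP libraries. Ccn2 and Epas1 were lower in all DP than in all Pdgfra+ libraries, and Gata6 overlapped between Pdgfra+ and DP.

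Of the 304 genes higher in positive cells, 294 were tested in the bulk libraries. In DP against Pdgfra+, 52 of them rose and 0 fell past the threshold, where 3.20% of all 14185 genes rose and 0.691% fell. Their median log2 fold change was 0.92, against 0.02 over all genes. In 216 of the 294 genes every DP library was above every Pdgfra+ library (background 17.4%), and 292 had a log2 fold change above 0 (background 51.9%), the other 2 being Spink1 (-0.08) and Echdc1, named after their values were seen. Of the 541 lower genes, 528 were tested, 32 fell and 1 rose past the threshold (Trh, which encodes thyrotropin-releasing hormone), the median was -0.80, 337 had every DP library below every Pdgfra+ library (background 16.8%) and 511 had a log2 fold change below 0 (background 47.9%). Leaving out Pdgfra+ replicate 1, 2 or 3 changed the count of 52 to 45, 24 or 10, and leaving out DP replicate 1, 2 or 3 changed it to 63, 21 or 19. In the same order, the share of all genes that rose was 2.02%, 0.783%, 0.358%, 3.42%, 0.774% and 0.781%. The count of 32 became 25, 17, 1, 78, 5 and 1, where 0.432%, 0.216%, 0.0270%, 1.47%, 0.0605% and 0.0337% of all genes fell. The medians ran from 0.80 to 1.04 and from -1.01 to -0.67 over these fits. With a replicate block on the 6 libraries compared, 63 of the higher set rose and 60 of the lower set fell, where 4.11% of all genes rose and 1.58% fell.

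**Figure D5:**
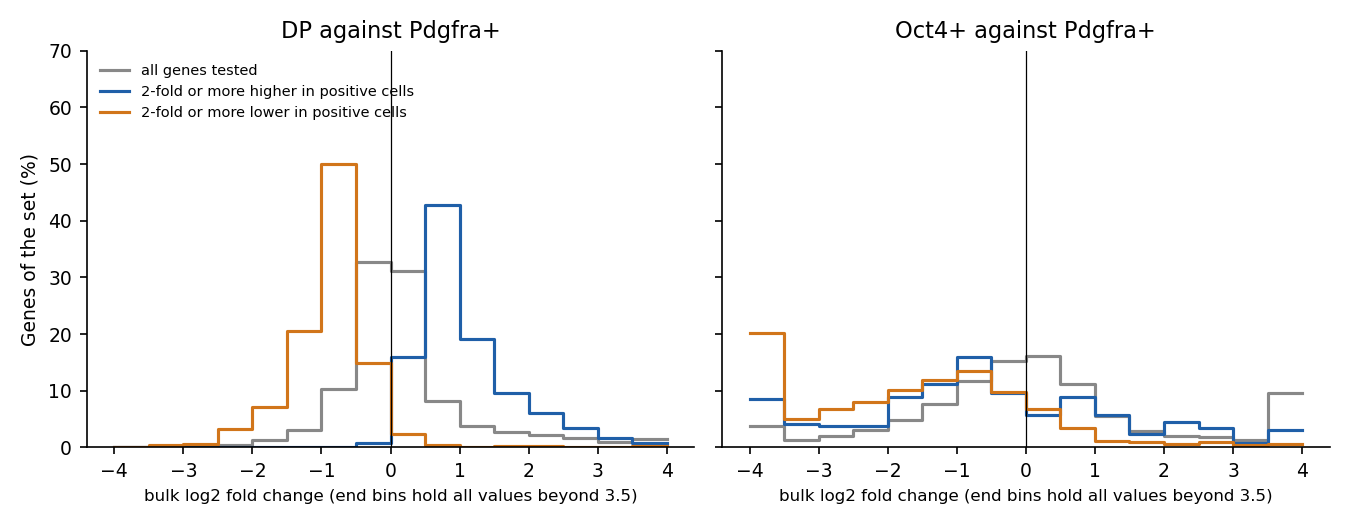
Distribution of bulk log2 fold changes (x axis, bins of 0.5, percentage of the genes of each set on the y axis) for DP (left) and Oct4+ (right) against Pdgfra+, for the genes higher (blue) or lower (orange) in Amn/Cubn-positive cells and for all genes tested (gray). In DP the blue set lay above 0 (median 0.92) and the orange set below (median -0.80), and in Oct4+ both medians were below 0 (-0.70 and -1.50).

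Among the genes with the largest single-cell ratios, Fam151a, Gas6, Gjb5, Dnmt3l and Rab11fip4 also rose in DP. Gjb5 was at 29.5, 7.57 and 7.20 CPM in Pdgfra+ and at 112, 127 and 150 CPM in DP (3.15 ± 0.50, edgeR adjusted p = 0.0131). Dnmt3l was at 66.0, 54.9 and 22.9 CPM and at 231, 625 and 286 CPM (2.99 ± 0.48, edgeR adjusted p = 0.0138), and both populations were separated in each gene. Without Pdgfra+ replicate 3 these genes were at adjusted p of 0.0541 and 0.0516 in edgeR. Fam151a and Rab11fip4 were at 0.0806 and 0.0697 without it in edgeR, and Gas6 was at 0.104 without DP replicate 3. Dnmt3b was at 156, 265 and 74.2 CPM and at 315, 789 and 531 CPM and did not pass (1.72 ± 0.51, edgeR adjusted p = 0.0690), while it did with the replicate block (adjusted p = 0.0218). Amot (1.05), Tfec (1.06), Slc13a5 (1.35) and Timd2 (1.58) had log2 fold changes above 0 with edgeR adjusted p from 0.0571 to 0.404, and Timd2 was at 0.0443 with the block on the 6 libraries compared.

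The receptor and lysosome lists were read in DP against Pdgfra+ as well, where 3.20% of all genes rose past the threshold and 0.691% fell. Of 24 endocytic genes 3 rose (12.5%) and 0 fell. The 3 were Amn and Cubn, by which the single cells were chosen, and Folr1 (1.72 ± 0.35, edgeR adjusted p = 0.0238). Lrp2 was at 1188, 1051 and 1196 CPM in Pdgfra+ and at 1692, 3097 and 2395 CPM in DP, separate but short of the test (1.06 ± 0.49, edgeR adjusted p = 0.204). Dab2 was at 1148, 1216 and 1165 CPM and at 1432, 1875 and 1977 CPM (0.58 ± 0.51, edgeR adjusted p = 0.502). Of 30 lysosomal genes 1 rose past the threshold, a share near that of all genes, and this was Hexa (2.07 ± 0.36, edgeR adjusted p = 0.0173), with 83.2, 38.5 and 76.2 CPM in Pdgfra+ and 196, 228 and 407 CPM in DP. Clic5 (2.19), Dkk1 (1.68), Fgfr2 (1.64) and Dusp4 (2.33) rose past the threshold as well. Without Pdgfra+ replicate 3 the adjusted p of Hexa, Clic5, Folr1, Dkk1, Fgfr2 and Dusp4 was 0.0690, 0.0568, 0.0973, 0.146, 0.148 and 0.148 in edgeR, and all but Clic5 also lost the call without DP replicate 3, as did Dusp4 without any single Oct4+ library.

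Among the genes lower in positive cells, Ccn2 was at 790, 576 and 1174 CPM in Pdgfra+ and at 267, 73.9 and 138 CPM in DP, a fall of 2.41 ± 0.43 on the log2 scale (edgeR adjusted p = 0.0183). Epas1 was at 1180, 1024 and 1971 CPM and at 639, 167 and 363 CPM (-1.84 ± 0.48, edgeR adjusted p = 0.0481), and Acaa2 fell by 1.80 (edgeR adjusted p = 0.0412). Spon2 fell by 2.11 (edgeR adjusted p = 0.0436), and with the replicate block it was at an adjusted p of 0.0509. Fst, at 496, 199 and 475 CPM and at 230, 29.7 and 109 CPM, overlapped between the populations (-1.66 ± 0.82, edgeR adjusted p = 0.236, and 0.0184 with the block on the 6 libraries compared). Thbd was at 97.7, 51.3 and 148 CPM and at 44.0, 6.25 and 14.0 CPM (-2.21 ± 0.62, edgeR adjusted p = 0.0601, and 0.0206 with the block). Of 22 parietal endoderm genes, 0 passed in either direction, near the shares of all genes, of which 3.20% rose and 0.691% fell. Their median was -0.51, with 18 genes below 0 and 4 above, where 47.9% of all genes were below 0. Without Pdgfra+ replicate 3, the adjusted p of Ccn2, Epas1, Acaa2 and Spon2 was 0.0697, 0.162, 0.145 and 0.137 in edgeR, and these genes also lost the call without DP replicate 3.

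Pluripotency genes moved with this sort too. Pou5f1 was at 26.4, 8.37 and 17.6 CPM in Pdgfra+, at 132, 245 and 310 CPM in DP and at 1137, 944 and 861 CPM in Oct4+, and 16 of 25 listed pluripotency genes rose in DP past the threshold (3.20% of all genes). Their part in the rise of the Amn/Cubn genes was not tested. Amn, Cubn, Npl and Nostrin were lower in every Oct4+ library than in every Pdgfra+ library, with Nostrin at 1.16, 5.52 and 3.55 CPM. Myo7a, at 4.88, 7.30 and 3.88 CPM, and Nefl, at 28.2, 23.9 and 51.1 CPM, overlapped with the Pdgfra+ libraries. Against the same Pdgfra+ libraries, Oct4+ cells had 41 of the 294 genes higher and 84 lower past the threshold, where 17.3% of all genes rose and 14.7% fell, and 17 of the 528 genes higher and 262 lower. Since both comparisons share the Pdgfra+ libraries, they are only set side by side. Amn and Cubn fell by 4.02 and 4.81 on the log2 scale in Oct4+ against Pdgfra+ (edgeR adjusted p = 6.96e-05 and 5.39e-05).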

How the data were processed

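The members, gene lists and thresholds were chosen with earlier results of these data known. The authors made the single-cell counts with Cell Ranger 6.1.2 (mm10), per the file headers, and deposited them as filtered matrices of UMI counts per gene and barcode. The bulk table holds the authors' raw read counts per gene, and the sources used here do not give its aligner, counter or genome build. All 9 bulk columns were used, with totals from 8019631 to 11642571 counts, and 48952 genes were left after 35 blank lines were taken out. The number of columns of per-sample values that were not used was 0.

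UMIs were summed over the cells of a group and divided by the group's total (CPM), and ratios carry exact conditional binomial 95% intervals, shares exact Clopper-Pearson intervals. Genes with 20 CPM or more in either group were compared. Named were the 6 marker genes, the 15 largest and 10 smallest ratios among genes of 50 CPM or more, up to 4 members of each list, the genes the study names and the 5 genes most correlated with Amn and Cubn over cells thinned to 2700 UMIs. Cells marked by Scrublet (scanpy 1.11.5) were kept. With 1 library per condition no test was made on cells. Depth limits the shares of cells, and intervals and the limits given for a count of 0 (3 counts) cover counting error only.

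Bulk counts of 14185 genes kept by the edgeR filter were tested with edgeR 4.0.16 (R 4.3.3), by its quasi-likelihood test on all 9 libraries with TMM normalization and Benjamini-Hochberg adjustment, at an adjusted p below 0.05 with a log2 fold change beyond 1.5 in either direction. DESeq2 1.42.0 was an alternative, and the others were other filters, scalings, cell limits, a replicate block and leaving out each library. Libraries of 1 population differed by more than counting noise (chi-square per degree of freedom from 16.7 to 36.6). Same-numbered DP and Pdgfra+ libraries deviated together (correlations of 0.271, 0.477 and 0.321). The replicate block took these numbers to pair them, from the counts and not from a label. The main test held no block, so that its p-values leave this pairing out. On the 6 libraries compared, 121 of 292 genes of the higher set rose in DP at an edgeR adjusted p below 0.05 without the block and 219 with it. Of all 12541 genes tested there, 560 and 1299 did. Scripts were tested on simulated data. Promoter sequences came from RefSeq (GRCm38.p6), in which 226 of the 304 higher and 426 of the 541 lower genes were matched. Python 3.11.15, scipy 1.17.1 and matplotlib 3.10.9 were used. Some members of the lists and of the named genes are not reported here.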

Additional observations from a re-analysis of the deposited data

Results flagged for a closer look

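In 12 of the named genes the ratio of positive over zero cells lay on opposite sides of 1 in the -4OHT and +4OHT libraries, each with a counting interval that left out 1. Ctsl, the cathepsin L gene, was higher in positive cells without 4OHT (2.18-fold) and lower with 4OHT, at 3315 against 3668 CPM (ratio 0.904). The lysosomal sialic acid exporter gene Slc17a5 went the same way, with ratios of 1.89 and 0.820. S100g was lower in positive cells without 4OHT (0.214) and higher with 4OHT, at 3894 against 3180 CPM (ratio 1.22). Cited1 had ratios of 0.530 without and 1.38 with 4OHT, Cpm of 0.511 and 2.39, Car4 of 0.517 and 1.30, and Lima1 of 0.559 and 1.29. The proliferation genes Dtl (0.643 and 1.39), Clspn (0.747 and 1.19) and Nusap1 (0.624 and 1.41) did so too. With 4OHT the list medians on the log2 scale were 0.43 for S phase and 0.49 for G2 and mitosis, and positive cells were deeper than zero cells. Nanog (0.603 and 7.58) and Sox2 (0.578 and 2.55) were under 3 CPM in both groups with 4OHT. Their ratios without 4OHT were taken with the cells marked by Scrublet kept, and the part of those cells was not tested for these 2 genes. H19, of the lists assembled after values were seen, had ratios of 0.0992 and 1.90. Other genes with such ratios are not given here. With 1 library per condition the difference between the libraries was not tested.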

How the results depend on the processing

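The share of positive cells, 54.8%, was 58.1% at 2 UMIs, 51.0% at 5 UMIs, 30.5% where the endoderm rule too was applied to cells thinned to 2700 UMIs (427 of 1402 cells), 49.8% at no more than 8% mitochondrial UMIs and 50.5% at 6000 CPM of Sparc, Col4a1 and Col4a2. On Cubn alone it was 51.9% and on Amn alone 45.3%, which were settings chosen after seeing the data. With genes of 5 CPM or more, 590 were 2-fold higher and 1149 lower in place of 304 and 541, and under the other settings the counts ran from 285 to 374 and from 490 to 731. A change of sign was counted as a reversal only for ratios that were 2-fold or more apart in the main setting. By this rule Dppa3 reversed, from a log2 ratio of -1.25 to 0.30 without cells marked by Scrublet. Smaller ratios that changed sign are counted below as kept or moved. Of the other log2 ratios of named genes over all settings, 1404 kept within a fixed fold of the main value and 92 moved. Of the list medians, 285 kept within it and 9 moved. Thbd could not be given a ratio in thinned cells, where the positive cells held 0 of its UMIs.

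Of the 294 tested genes of the higher set, counted in either direction, 115 had an adjusted p below 0.05 in DP and 215 in Oct4+ with no minimum fold change, against 52 and 125 past the threshold. Leaving out 1 library each gave 10 to 63 in DP and 118 to 129 in Oct4+. DESeq2 called 64 and edgeR without a filter 64 in DP. The replicate block on all 9 libraries called 52 higher, and that on the 6 libraries compared, chosen after seeing the data, 63. Correlations of Oct4+ and Pdgfra+ libraries of the same number were 0.0383, -0.00412 and -0.0465. For named genes in bulk, 3182 values kept their side of an adjusted p of 0.05, 149 moved below it and 147 moved above it. The fold limit was not applied in these counts. The causes of these changes were not tested. Depth limits genes of few UMIs, and 3 libraries per population limit the bulk test.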

Other observations

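The gene groups described here were assembled after their values were seen and support nothing further. Contractile and focal adhesion genes were lower in the positive -4OHT cells, with 7 of 10 tested genes 2-fold or more lower (8.23% of all genes), 0 higher and a median log2 ratio of -2.83. Of the 7, Myl9, Tagln, Acta2, Flna and Fhl2 were under 20 CPM in positive cells. Tagln, a smooth muscle actin-binding protein gene, was at 0.387 against 38.1 CPM, and Cald1 (caldesmon) at 39.2 against 328 CPM. In the sorted bulk libraries 3 of 13 of these genes fell in DP against Pdgfra+ (0.691% of all genes), namely Tagln, Cald1 and the skeletal actin gene Acta1, with log2 fold changes of -3.24, -2.15 and -3.39 (edgeR adjusted p = 0.0202, 0.0141 and 0.0332). Of 11 tested imprinted genes, 7 were lower (8.23% of all genes) and 0 higher. Of the 7, Sgce, Grb10 and Plagl1 were under 20 CPM in positive cells. In DP against Pdgfra+, 1 of 21 imprinted genes rose (3.20% of all genes) and 1 fell (0.691%). Their median log2 fold change was -0.06, with 10 genes above 0 and 11 below. H19 was at 31.9 against 322 CPM and Peg10 at 54.6 against 518 CPM in the -4OHT cells. With 4OHT, H19 was at 447 against 236 CPM and Peg10 at 496 against 547 CPM. Ccn1, a YAP target gene, was at 35.7 against 162 CPM. Slc2a1, a glucose transporter gene, was at 59.3 against 168 CPM, in the other direction from Slc2a3.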
